A study of Mus musculus with 10 samples.

Results

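The olfactory bulb and subcortical marker genes described here are 7 genes: Omp, S100a5, Th, Eomes, Tbx21, Slc6a5 and Ecel1. They are the rows of the deposited expression table that carry these names, 7 of 35275, and all 7 were among the 14497 genes whose mean reached 0.5 FPKM (fragments scaled by gene length and by the library's assigned fragments). They were chosen by their FPKM values per library and genotype in these same 10 libraries, so their levels and their differences between genotypes are given as a description, with no test. The RNA came from the motor cortex of mice of strain C57BL/6, aged 22 days after birth. The groups were 5 wild-type (WT) libraries and 5 libraries from mice with an astrocyte conditional knockout of membralin (KO), an endoplasmic reticulum membrane protein encoded by Tmem259. The sources used here do not name the Cre driver or say whether the WT mice carried a floxed allele, and tissue RNA also holds Tmem259 from cells other than astrocytes.

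The olfactory bulb is the first relay of the sense of smell. Sensory neurons of the nose send their axons into its glomeruli, where they meet the mitral and tufted cells, the projection neurons of the bulb, and local interneurons, some of which make dopamine. Glycinergic neurons lie mainly in the brain stem and spinal cord. None of these cells is a principal cell type of the motor cortex. The genes are named here as markers of such cells, and Ecel1 as a marker of subcortical neurons. Whether their transcripts came from tissue beyond the motor cortex was not tested. In RNA from bulk tissue, more cells of a type and more RNA per cell cannot be told apart.

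The libraries held between 22793058 and 28827871 assigned fragments. Tmem259 measured 25.5, 23.8, 25, 32.4 and 30.4 FPKM in WT1 to WT5, and 20.1, 18.5, 34.4, 16.9 and 26.2 FPKM in KO1 to KO5. The library labelled KO3 was the highest of the 10, against its label, and KO5 lay within the WT range. The genotype difference did not pass (adjusted p = 0.275 by limma). Without the library labelled KO3 the limma adjusted p was 0.0279. That library stands out by its Tmem259, so leaving it out favours this result, and 0.0279 is no test of the knockout. KO values include that library except where stated. Cortical excitatory neuron genes were abundant in each library, with a summed level of 15 listed genes of 2910 to 3560 FPKM in WT and 2190 to 2940 FPKM in KO. Y-linked transcripts were present in WT4, WT5, KO4 and KO5, which include libraries with low and with high levels of each marker set described next.

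The markers fell into 2 patterns across the libraries. Omp, S100a5, Eomes, Tbx21 and Th were high in WT3, WT4 and KO1 to KO4. Slc6a5 and Ecel1 were highest in KO5, followed by KO4, KO1 and KO2. The 2 patterns parted at KO5, which was low for Omp, S100a5, Eomes and Tbx21, though not for Th, and highest for Slc6a5 and Ecel1, and at WT3, WT4 and the library labelled KO3, which held the first set with little or no Slc6a5.

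Promoters of 3 genes are shown here because they belong to genes of both patterns and differ in one searched motif. Each is the RefSeq sequence (GRCm38.p6) from 250 bases before to 50 bases after an annotated start, read 5′ to 3′ on the gene's strand, for S100a5 on the plus strand at chr3:90608272-90608571, for Th on the minus strand at chr7:142899946-142900245 and for Slc6a5 on the plus strand at chr7:49910049-49910348, the first of the 2 starts listed for it. Capitals mark TGACGTCA, the cAMP response element, and its short form TGACG.
S100a5: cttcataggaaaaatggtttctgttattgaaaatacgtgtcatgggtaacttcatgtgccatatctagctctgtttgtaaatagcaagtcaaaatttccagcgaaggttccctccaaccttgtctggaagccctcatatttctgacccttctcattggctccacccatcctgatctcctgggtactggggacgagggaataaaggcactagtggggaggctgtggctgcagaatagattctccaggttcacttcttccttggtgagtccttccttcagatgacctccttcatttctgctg
Th: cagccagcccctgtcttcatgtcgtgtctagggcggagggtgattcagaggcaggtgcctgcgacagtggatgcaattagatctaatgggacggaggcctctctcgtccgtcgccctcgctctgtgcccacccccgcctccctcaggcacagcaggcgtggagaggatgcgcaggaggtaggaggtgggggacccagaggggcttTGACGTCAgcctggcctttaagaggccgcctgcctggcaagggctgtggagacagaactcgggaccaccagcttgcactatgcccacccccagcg
Slc6a5: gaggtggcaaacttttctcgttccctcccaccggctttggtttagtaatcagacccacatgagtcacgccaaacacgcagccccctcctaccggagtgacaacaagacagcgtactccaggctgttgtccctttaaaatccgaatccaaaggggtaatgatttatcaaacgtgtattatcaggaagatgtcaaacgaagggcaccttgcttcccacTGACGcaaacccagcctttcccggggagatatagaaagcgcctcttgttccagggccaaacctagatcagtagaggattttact
The Th window holds TGACGTCA starting 45 bases before the start site. It was the 1 of 7 windows of the members with that element, which occurred on either strand in 1.79% of 32851 promoter windows of the same length. The Slc6a5 window holds the short form 34 bases before the start, and 20.8% of all windows hold it; every TGACGTCA contains the short form on both strands. The S100a5 window has neither. The EBF palindrome (TCCC, any 2 bases, GGGA), found in 0.904% of all windows, and the T-box site AGGTGTGA, found in 1.28%, both searched on either strand, were in none of the 7 windows, which covered 6 of the 7 members. These are matches of letters, and no match says only that the letters are not in the window.

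Omp encodes the olfactory marker protein, a cytoplasmic protein of mature olfactory sensory neurons (ENSMUSG00000074006, chromosome 7, 98143360 to 98145502, minus strand, mm10). It measured 0.270, 0.259, 3.26, 2.95 and 0.228 FPKM in WT1 to WT5, and 5.92, 10.5, 7.95, 8.89 and 0.406 FPKM in KO1 to KO5. WT3, WT4 and KO1 to KO4 stood apart from the other libraries, and 4 of the 5 KO libraries lay above every WT library. WT averaged 1.39 ± 1.56 FPKM and KO 6.74 ± 3.91 FPKM (SD, n = 5 each). The groups overlapped, since KO5 lay below WT3 and WT4. Omp lies within an intron of Capn5 on the same strand, and no annotated Capn5 exon falls inside it. Capn5 was between 12.8 and 17.5 FPKM in the 10 libraries, and reads of unspliced Capn5 RNA over Omp cannot be told apart from Omp reads.

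S100a5, a calcium-binding protein of the S100 family made by olfactory sensory neurons, followed Omp library by library (ENSMUSG00000001023, chromosome 3, 90608523 to 90611780, plus strand). It had 0 fragments in WT1, WT2 and WT5, where 3 fragments would be 0.252, 0.241 and 0.283 FPKM, and measured 3.77 FPKM in WT3 and 3.02 FPKM in WT4. In KO1 to KO4 it measured 7.66, 16.1, 8.61 and 10.4 FPKM, and in KO5 it had 1 fragment. WT averaged 1.36 ± 1.88 FPKM and KO 8.58 ± 5.76 FPKM (SD, n = 5 each), and 4 KO libraries lay above every WT library. The order of the libraries was the same as for Omp, apart from the 3 WT libraries at 0. In the 6 libraries with both transcripts high, the ratio of S100a5 to Omp per length was between 1.02 and 1.53, and in KO5 it was 0.249.

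Eomes, a T-box transcription factor of mitral and tufted cells that also marks intermediate progenitors, measured 0.223, 0.224, 2.35, 1.63 and 0.126 FPKM in WT1 to WT5 (chromosome 9, 118478212 to 118486132, plus strand). It measured 2.37, 4.63, 3.43, 3.0 and 0.783 FPKM in KO1 to KO5. KO5 again lay below WT3 and WT4, but above the other WT libraries. WT averaged 0.911 ± 1.02 FPKM and KO 2.84 ± 1.42 FPKM (SD, n = 5 each). The antisense gene Gm33460 overlaps its last part, and reads of the 2 strands cannot be told apart here.

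Tbx21, a second T-box factor of mitral and tufted cells that also acts in T cells, was the lowest of the bulb markers (chromosome 11, 97098071 to 97115331, minus strand). It measured 0.0291, 0.0418, 0.794, 0.582 and 0.0818 FPKM in WT1 to WT5 and 0.773, 2.07, 1.11, 1.24 and 0.280 FPKM in KO1 to KO5. WT3 lay above KO1, so 3 KO libraries lay above every WT library. The low WT values rest on 2, 3 and 5 fragments. In WT3, WT4 and all 5 KO libraries the ratio of Tbx21 to Eomes per length was between 0.324 and 0.447.

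Th encodes tyrosine hydroxylase, the rate-limiting enzyme of catecholamine synthesis, which dopaminergic interneurons of the bulb share with midbrain and noradrenergic neurons (chromosome 7, 142892752 to 142931128, minus strand). It measured 0.833, 1.16, 5.74, 3.42 and 0.938 FPKM in WT1 to WT5 and 7.96, 13.1, 7.63, 11.4 and 5.39 FPKM in KO1 to KO5. Unlike Omp, Th was not low in KO5, where it lay between WT3 and WT4. The ratio of Omp to Th was between 0.567 and 1.04 in the 6 libraries with high Omp, between 0.222 and 0.324 in WT1, WT2 and WT5, and 0.0754 in KO5. WT averaged 2.42 ± 2.14 FPKM and KO 9.09 ± 3.10 FPKM (SD, n = 5 each), and 4 KO libraries lay above every WT library.

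Slc6a5, the neuronal glycine transporter GlyT2 and a defining gene of glycinergic neurons, was near 0 in each WT library (ENSMUSG00000039728, chromosome 7, 49910146 to 49963856, plus strand). It had 1, 10, 1, 0 and 5 fragments in WT1 to WT5, of which the highest value was 0.0491 FPKM. It had 363, 69, 0, 749 and 1333 fragments in KO1 to KO5, or 1.86, 0.366, 0, 4.36 and 8.21 FPKM. The library labelled KO3 had none, where 3 fragments would be 0.0183 FPKM, and the other 4 KO libraries lay above every WT library. WT averaged 0.0178 ± 0.0207 FPKM and KO 2.96 ± 3.40 FPKM (SD, n = 5 each), so the SD in KO was larger than the mean.

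Ecel1, a membrane metallopeptidase-like protein of neurons that rises after nerve injury, was measured in every library (ENSMUSG00000026247, chromosome 1, 87147655 to 87156521, minus strand). It was 2.96, 6.37, 3.60, 2.61 and 1.93 FPKM in WT1 to WT5 and 10.2, 8.75, 4.89, 12.1 and 21 FPKM in KO1 to KO5. KO1, KO2, KO4 and KO5 lay above every WT library, and the library labelled KO3 lay below WT2. WT averaged 3.49 ± 1.72 FPKM and KO 11.4 ± 5.99 FPKM (SD, n = 5 each). With that library left out, KO averaged 13.0 ± 5.49 FPKM (SD, n = 4).

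On the log2(FPKM + 1) scale the difference of the means, KO minus WT, was 1.65 for Omp, 1.97 for S100a5, 1.07 for Eomes, 0.66 for Tbx21, 1.71 for Th, 1.49 for Slc6a5 and 1.41 for Ecel1. Without the library labelled KO3 these differences were 1.52, 1.86, 0.99, 0.65, 1.75, 1.87 and 1.64 in the same order of genes. That library thus raised the difference of the first 4 genes and lowered that of Th, Slc6a5 and Ecel1. The groups overlapped for each of the 7 genes, and the share of all genes with overlap is not given here. The differences of the means belong to the contrast that chose the genes. Across all genes 13.3% were called by limma in that contrast, which is not a measure of overlap.

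**Figure D1:**
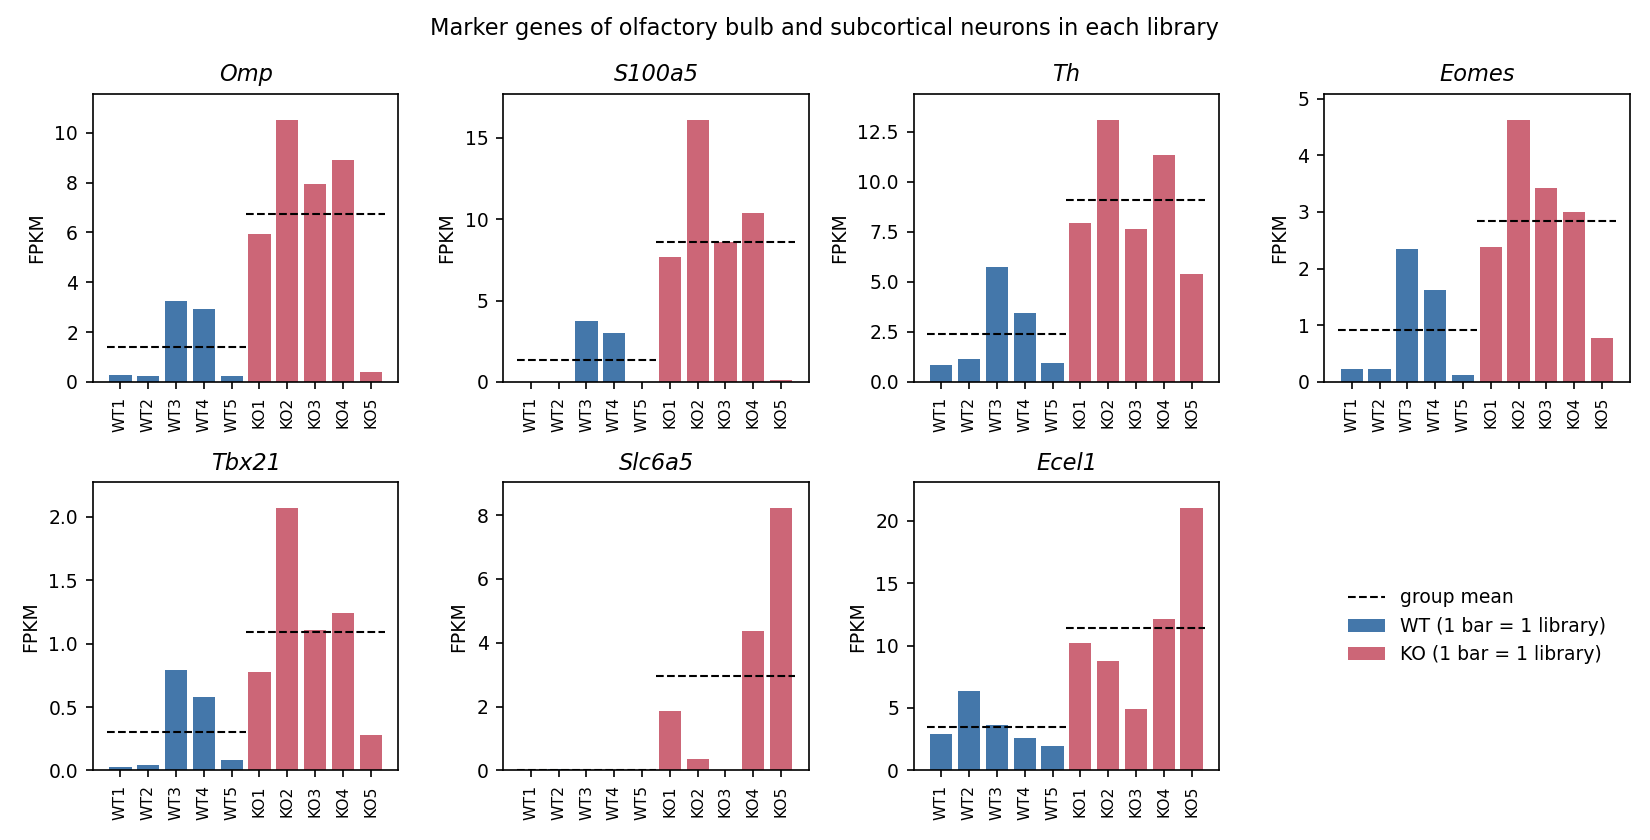
FPKM of the 7 marker genes in each library, 1 panel per gene; each bar is 1 library (blue WT, red KO) and dashed lines are group means. Omp and S100a5 are high in KO1 to KO4, WT3 and WT4 and low in KO5, while Slc6a5 and Ecel1 peak in KO5 at 8.21 and 21 FPKM.

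Likeness between genes was measured as Pearson's r of log2(FPKM + 1) over the 10 libraries. It is a description: the libraries fall into low and high sets, they share 1 scaling each, and no p is given. The r was 0.998 between Omp and S100a5, 0.973 between Omp and Eomes, 0.959 between Omp and Tbx21, 0.894 between Omp and Th, and 0.978 between Eomes and Tbx21. Slc6a5 and Ecel1 had r = 0.878 with each other. Across the 2 patterns r was 0.0914 between Omp and Slc6a5 and 0.264 between Omp and Ecel1. Th had r = 0.451 to Slc6a5 and 0.604 to Ecel1. These pooled values include the difference between genotypes, and within a genotype the sign could turn. Over the 5 WT and the 5 KO libraries taken alone, r was -0.651 and -0.721 between Omp and Slc6a5, -0.524 and -0.423 between Th and Slc6a5, and 0.0235 and -0.368 between Th and Ecel1, where WT held at most 10 fragments of Slc6a5 per library. Between Omp and S100a5 it was 0.999 and 0.995, and between Slc6a5 and Ecel1 0.557 and 0.945. Without KO5 the r between Omp and Slc6a5 was 0.526 and that between Omp and Th was 0.987, so the separation of the patterns rests in part on that library. Without the library labelled KO3 the r between Omp and Slc6a5 was 0.187.

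**Figure D2:**
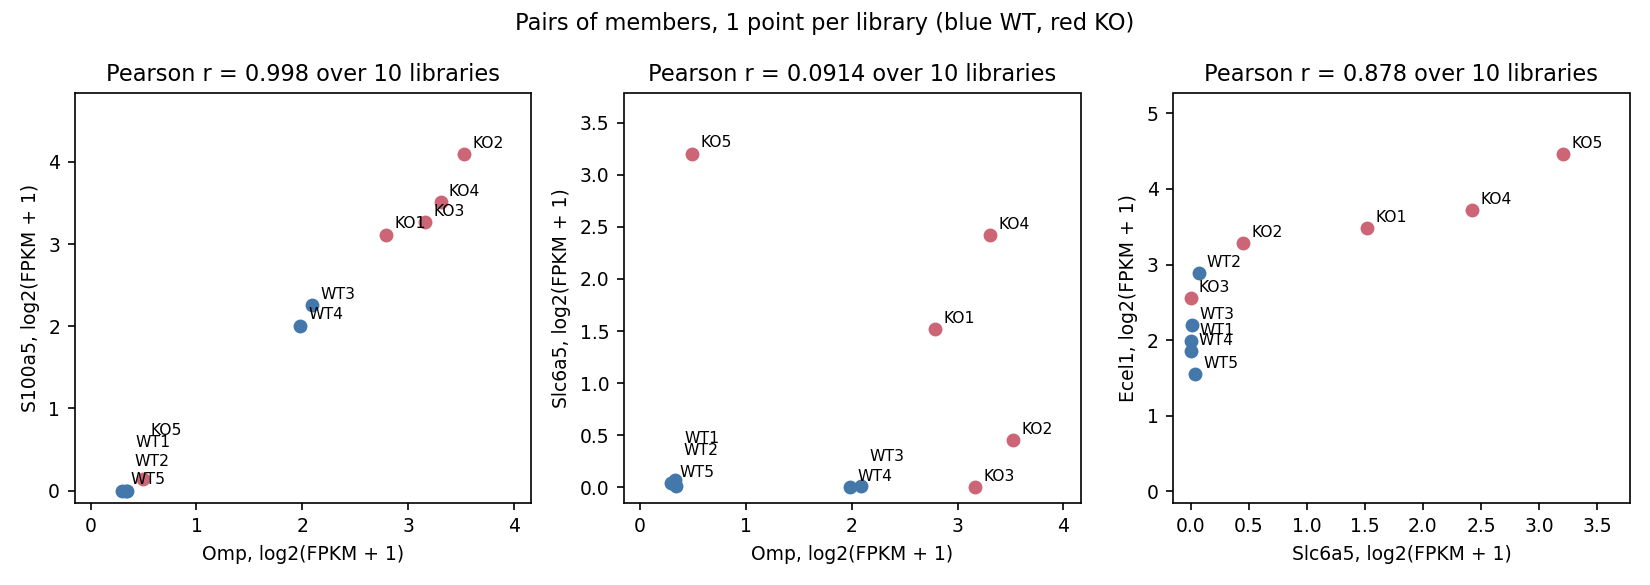
Levels of 3 pairs of members, log2(FPKM + 1) on both axes, 1 point per library (blue WT, red KO). Omp and S100a5 lie along 1 line (r = 0.998); in the middle panel KO5 has the highest Slc6a5 with low Omp, and the library labelled KO3, WT3 and WT4 have Omp with almost no Slc6a5.

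The genes whose pattern was most like the bulb markers were the same few for several of them. Doc2g, a double C2 domain protein, had r = 0.984 with Omp, 0.990 with S100a5, 0.986 with Eomes and 0.980 with Tbx21. It measured between 2.07 and 7.42 FPKM in the 6 libraries with high Omp, and 0.537 to 0.963 FPKM in the other 4. Frmd7, a FERM domain protein, had r = 0.979 with Omp and 0.987 with Eomes. Ms4a15, a membrane-spanning protein, had r = 0.994 with Eomes and 0.986 with Tbx21, and Cdhr1, a cadherin-related protein of mitral cells, had r = 0.978 with Eomes. Shisa3 had r = 0.977 with S100a5, and Pcbp3, an RNA-binding protein, had r = 0.982 with Tbx21. In all, 59 of 14496 genes had r of at least 0.9 with Omp.

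Th had a different set of nearest genes. They were Gng4, a G protein gamma subunit (r = 0.989), and Dlx1 and Sp8, transcription factors of interneurons (0.981 and 0.980). Next came Cacng5, named for the calcium channel gamma subunit family (0.979), and Gpsm1 (0.976). Sp8 measured 0.718, 1.11, 4.30, 2.52 and 0.482 FPKM in WT1 to WT5 and 5.67, 7.96, 5.04, 6.24 and 2.45 FPKM in KO1 to KO5. KO5 lay close to WT4 for Sp8, whereas for Th it lay closer to WT3. 157 genes had r of at least 0.9 with Th.

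Slc6a5 was most like Lingo4 (r = 0.981), Rgs13 (0.980), Ret, the receptor of the glial-derived neurotrophic factor family (0.976), Gal, the neuropeptide galanin (0.972), and Tes (0.969). Gal measured at most 0.801 FPKM in WT, and 2.55, 1.05, 0.242, 8.15 and 9.72 FPKM in KO1 to KO5. Ret was between 0.665 and 0.987 FPKM in WT and reached 2.67 FPKM in KO4 and 4.79 FPKM in KO5. Ecel1 was most like the imprinted gene Peg10 (r = 0.987), the sodium channel gene Scn7a (0.980), Cd97 (0.978), the acetylcholinesterase gene Ache (0.974) and Rxfp3, a receptor of relaxin-3 (0.973). Peg10 measured between 2.92 and 5.85 FPKM in WT, and 10.6, 8.81, 4.84, 10.3 and 21.1 FPKM in KO1 to KO5. With r of at least 0.9 there were 195 genes for Slc6a5 and 330 for Ecel1, against 76 and 177 with r of -0.9 or below.

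**Figure D3:**
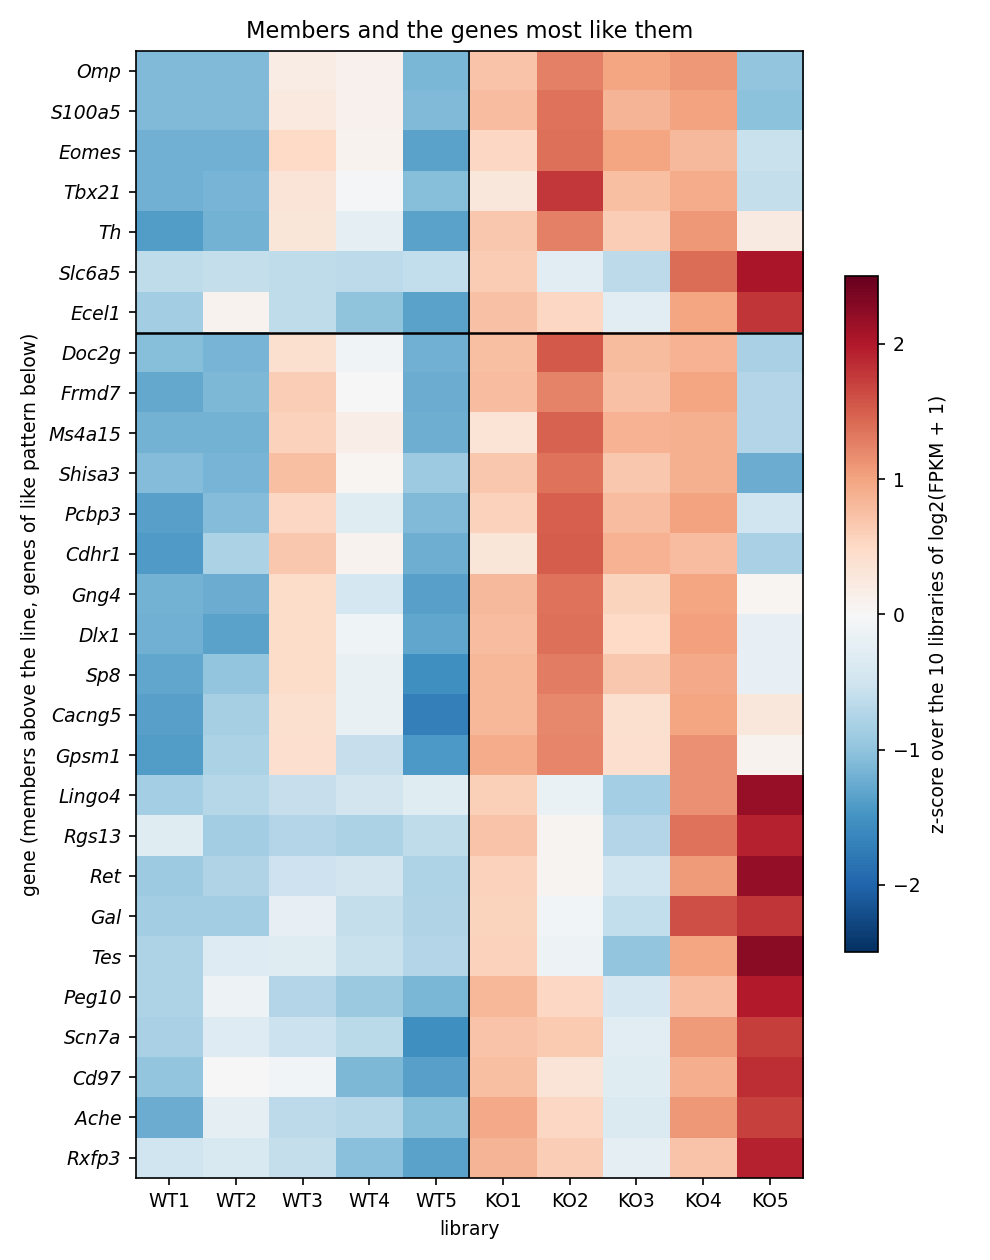
Heat map of the 7 members (above the line) and of the genes with the highest Pearson r to each (below the line) over the 10 libraries; colour is the z-score of log2(FPKM + 1) of each gene. Genes of the first pattern are red in KO1 to KO4 and pale in WT3 and WT4, and genes of the second are darkest in KO5.

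Genes of the same regions and cell types, which are not members, were compared between genotypes in the fit across all genes (limma on log2(FPKM + 1), two-sided, Benjamini-Hochberg adjustment, called below 0.05, n = 5 each). That fit called 9.77% of the 14497 genes higher and 3.51% lower in KO, with a median log2 fold change of 0.08. With median-of-ratios scaling, which moved that median to 0.00, it called 4.19% higher and 6.52% lower. Of 18 lists with 208 genes in the table, 142 genes were tested, of which 52 rose and 13 fell. The number of calls moved with single libraries: without WT1, without KO2 or without KO4 no listed gene was called. Over all genes 3943, 4101 and 3727 then had an unadjusted p under 0.05, against 4758 with all libraries. With any 1 library left out, the highest limma adjusted p was 0.0558 for Dlx5, Sp9 and Camk2a, and 0.118 for Matn2. The counts thus turn on the threshold. Without KO1 11 rose and 6 fell, without KO5 34 rose and 9 fell, without WT4 29 and 11, without WT5 15 and 9, and without the library labelled KO3 62 and 16, where 19.6% of all genes were called higher and 6.36% lower. The lists were chosen with results of these data known, so they are described by counts and medians only.

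Among interneuron genes of the bulb, several of which cortical interneurons also express, of 16 genes 10 rose and none fell, with a median log2 fold change of 0.69, against 6 that rose with median-of-ratios scaling. Dlx5 went from 3.48 ± 0.96 to 6.14 ± 0.58 FPKM and Sp9 from 2.59 ± 0.97 to 5.27 ± 0.81 FPKM (adjusted p = 0.0186 by limma for both; SD, n = 5 each). Both are transcription factors of GABAergic interneurons. Synpr, a synaptic vesicle protein, had a log2 fold change of 0.77 (SE 0.17, limma adjusted p = 0.0217), and Sp8 of 1.30 (SE 0.34, adjusted p = 0.0315). Trh, the precursor of thyrotropin-releasing hormone, rose from 2.39 ± 1.21 to 6.11 ± 2.61 FPKM. Unlike Omp it was highest in KO5, at 9.82 FPKM. The summed level of the list was lowest in WT5, at 83.8 FPKM, and highest in KO2, at 236 FPKM.

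Mitral and tufted cell genes gave 1 call among 6 tested, Reln, which encodes the secreted protein reelin and is also made by cortical cells. It went from 12.7 ± 1.97 to 17.0 ± 1.63 FPKM (adjusted p = 0.0270 by limma; SD, n = 5 each). Doc2g had a log2 fold change of 1.12 (SE 0.37, limma adjusted p = 0.0633) and Cdhr1 of 1.04 (SE 0.44, adjusted p = 0.125), and neither passed. Cdhr1 measured 11.9 and 7.70 FPKM in WT3 and WT4 and between 2.12 and 3.76 FPKM in WT1, WT2 and WT5. WT3 thus lay among the KO libraries, and KO5, at 3.69 FPKM, among the low WT libraries. Slc17a6, the vesicular glutamate transporter of subcortical and mitral neurons, measured 7.57 ± 1.01 and 7.89 ± 1.49 FPKM (adjusted p = 0.814).

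Of 10 other genes of olfactory sensory neurons that were tested, 4 rose and 1 fell, and none rose with median-of-ratios scaling. Stoml3, a stomatin-like membrane protein, rose from 0.265 ± 0.120 to 0.936 ± 0.521 FPKM (limma adjusted p = 0.0418, n = 5 each) and had r = 0.871 with Omp. Gap43, a growth cone protein of many neurons, rose by 0.31 on the log2 scale (adjusted p = 0.0377 by limma), and Kirrel2 fell by 0.96 (adjusted p = 0.0250). Unlike Stoml3, these genes did not follow Omp, with r = 0.302 for Gap43 and -0.759 for Kirrel2. Gap43 had r = 0.86 with Ecel1. Gng13, a G protein gamma subunit of smell transduction, measured 2.17 ± 1.57 and 1.28 ± 0.67 FPKM (adjusted p = 0.329). The transduction channel genes Cnga2 and Cnga4 stayed below 0.5 FPKM in each library.

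Genes of migrating neuroblasts and of olfactory ensheathing cells rose in part. Of 9 neuroblast genes 5 rose, among them Igfbpl1, from 1.0 ± 0.78 to 2.93 ± 0.96 FPKM, Sox11 and Top2a (limma adjusted p = 0.0250, 0.0256 and 0.0243, n = 5 each), and 3 with median-of-ratios scaling. Igfbpl1 had r = 0.834 with Omp and 0.541 with Slc6a5. Sox11 and Top2a were more like Slc6a5 (r = 0.848 and 0.906) than Omp (0.522 and 0.473). Of 7 ensheathing cell genes 4 rose, Npy, Fabp7, Prss56 and Matn2, and 2 with that scaling. Fabp7, a fatty acid binding protein also made by astrocytes, went from 60.1 ± 14.7 to 121 ± 45.7 FPKM and had r = 0.893 with Omp. Npy, the neuropeptide Y gene, went from 38.1 ± 7.98 to 109 ± 52.6 FPKM (log2 fold change 1.36, limma adjusted p = 0.0227, n = 5 each) and had r = 0.939 with Slc6a5.

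Ddc, the enzyme after Th in dopamine synthesis, averaged 3.77 ± 0.54 FPKM in WT against 3.58 ± 0.58 FPKM in KO (adjusted p = 0.703 by limma; SD, n = 5 each). Slc18a2, the vesicular monoamine transporter, measured 1.32 ± 0.23 and 1.67 ± 0.34 FPKM (adjusted p = 0.212). Slc6a3, the dopamine transporter, was below the filter, at most 0.247 FPKM in WT and 0.651 FPKM in KO2. Of 9 tested genes of dopamine synthesis and transport 2 rose, among them Maoa, which degrades monoamines, and none fell; 1 rose with median-of-ratios scaling. Maoa went from 6.22 ± 0.22 to 8.17 ± 1.04 FPKM (limma adjusted p = 0.0234, n = 5 each).

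Genes that define midbrain dopaminergic neurons were mostly at trace levels. Of 13 such genes 8 stayed below 0.5 FPKM in each library, among them Pitx3, Lmx1a, Foxa1, Foxa2 and En1. Of the 5 tested, Dlk1 and Ret rose (limma adjusted p = 0.0412 and 0.0421; 0.0567 and 0.0558 with median-of-ratios scaling), and Aldh1a1 fell from 20.5 ± 6.01 to 9.56 ± 1.59 FPKM (adjusted p = 0.0180, n = 5 each). Noradrenergic and serotonergic genes gave no call among 2 tested, Tph2 and Gata2 (limma adjusted p = 0.325 and 0.996). Dbh, which turns dopamine into noradrenaline, was at most 0.313 FPKM in WT and 0.322 FPKM in KO.

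Glycinergic neuron genes other than Slc6a5 rose in 4 of 7 tested, and 3 did so with median-of-ratios scaling. Glra1, the glycine receptor subunit of adult brain stem and spinal cord, measured between 0.0170 and 0.377 FPKM in WT, and 1.12, 0.973, 0.181, 1.41 and 2.31 FPKM in KO1 to KO5. As for Slc6a5, KO5 was highest and the library labelled KO3 lay within the WT range. Its log2 fold change was 0.78 (SE 0.22, limma adjusted p = 0.0375). Slc32a1, which loads GABA and glycine into vesicles, went from 34.0 ± 7.42 to 56.6 ± 8.32 FPKM without overlap of the groups (limma adjusted p = 0.0186, n = 5 each). Slc6a9, the glycine transporter of glia and some neurons, rose from 8.87 ± 1.63 to 12.2 ± 2.21 FPKM (adjusted p = 0.0445; 0.0944 with median-of-ratios scaling).

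Hox genes, which set position along the hindbrain and spinal cord, were near 0 in the libraries with Slc6a5. All 18 of the list stayed below 0.5 FPKM in each library, with a highest value of 0.0952 FPKM, and 10 of them were at 0 in all libraries. Their summed level was at most 0.205 FPKM in WT and 0.117 FPKM in KO. In KO5, with the highest Slc6a5, it was 0.05 FPKM. Pax2 and Lbx1, which mark developing glycinergic neurons, were at most 0.119 FPKM.

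Some genes of other subcortical regions rose, beside 9.77% of all genes tested. Of 8 cholinergic genes 3 rose, Ache, Zic4 and Slc18a3, and 2 with median-of-ratios scaling; Chat, which makes acetylcholine, measured 0.781 ± 0.468 and 1.34 ± 0.48 FPKM (limma adjusted p = 0.120, n = 5 each). The cholinergic list summed to 46.7 FPKM in KO5, the highest, and to 26.1 FPKM in WT2, the highest WT library and also the highest WT library for Ecel1. Ache alone was 29.9 FPKM in KO5 and 16.4 FPKM in WT2. It is among the genes most like Ecel1, so the sum mainly repeats that likeness. Of 5 hypothalamic genes only Gal rose (limma adjusted p = 0.0467; 0.0568 with median-of-ratios scaling), while Pomc and Avp did not pass (adjusted p = 0.0720 and 0.235). The hypothalamic list summed to between 6.31 and 11.9 FPKM in WT, and to 12.8, 10.6, 12.3, 18.5 and 30.0 FPKM in KO1 to KO5, so that KO2 lay within the WT range and KO1 and the library labelled KO3 just above it. Of 7 tested septal and basal forebrain genes 3 rose, Zic1, Zic2 and Sst, with Zic1 going from a mean of 3.72 to 8.50 FPKM without overlap (adjusted p = 0.0186). With median-of-ratios scaling 2 of them rose, and Sst did not pass (limma adjusted p = 0.0971).

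Thalamic genes had a median log2 fold change of -0.01, with Tac2 higher and Rora and Nwd2 lower among 8. Of 4 cerebellar genes Cbln1 rose and Neurod1 and Pvalb fell, and the granule cell gene Gabra6 was at most 0.0990 FPKM. Cbln1 did not pass with median-of-ratios scaling (limma adjusted p = 0.057). Of 13 striatal genes 6 rose, with Pdyn, Penk and Tac1 among them, and 3 with median-of-ratios scaling; the list summed to 675 FPKM in WT2 and to between 231 and 380 FPKM in the other WT libraries, against 538 to 675 FPKM in KO. Of 12 choroid plexus and meningeal genes 4 rose, Aldh1a2, Ogn, Lum and Slc6a13, against 2 with median-of-ratios scaling and 8 without the library labelled KO3. The summed level of the list ranged from 57.5 to 170 FPKM in WT and from 41.6 to 225 FPKM in KO. Of 15 cortical excitatory genes 7 fell and 1 rose, with Camk2a going from 820 ± 87.5 to 518 ± 109 FPKM and Cux2 and Rorb also lower (limma adjusted p = 0.0186 for each, n = 5 each). With median-of-ratios scaling 8 of the cortical genes fell and 0 rose. Some listed genes were abundant in WT motor cortex, with means of 34.9 FPKM for Pvalb, 111 FPKM for Sst, 38.1 FPKM for Npy and 34.0 FPKM for Slc32a1. The name of a list thus does not give the source of a transcript. The part of these other lists in the levels of the 7 markers was not tested.

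**Figure D4:**
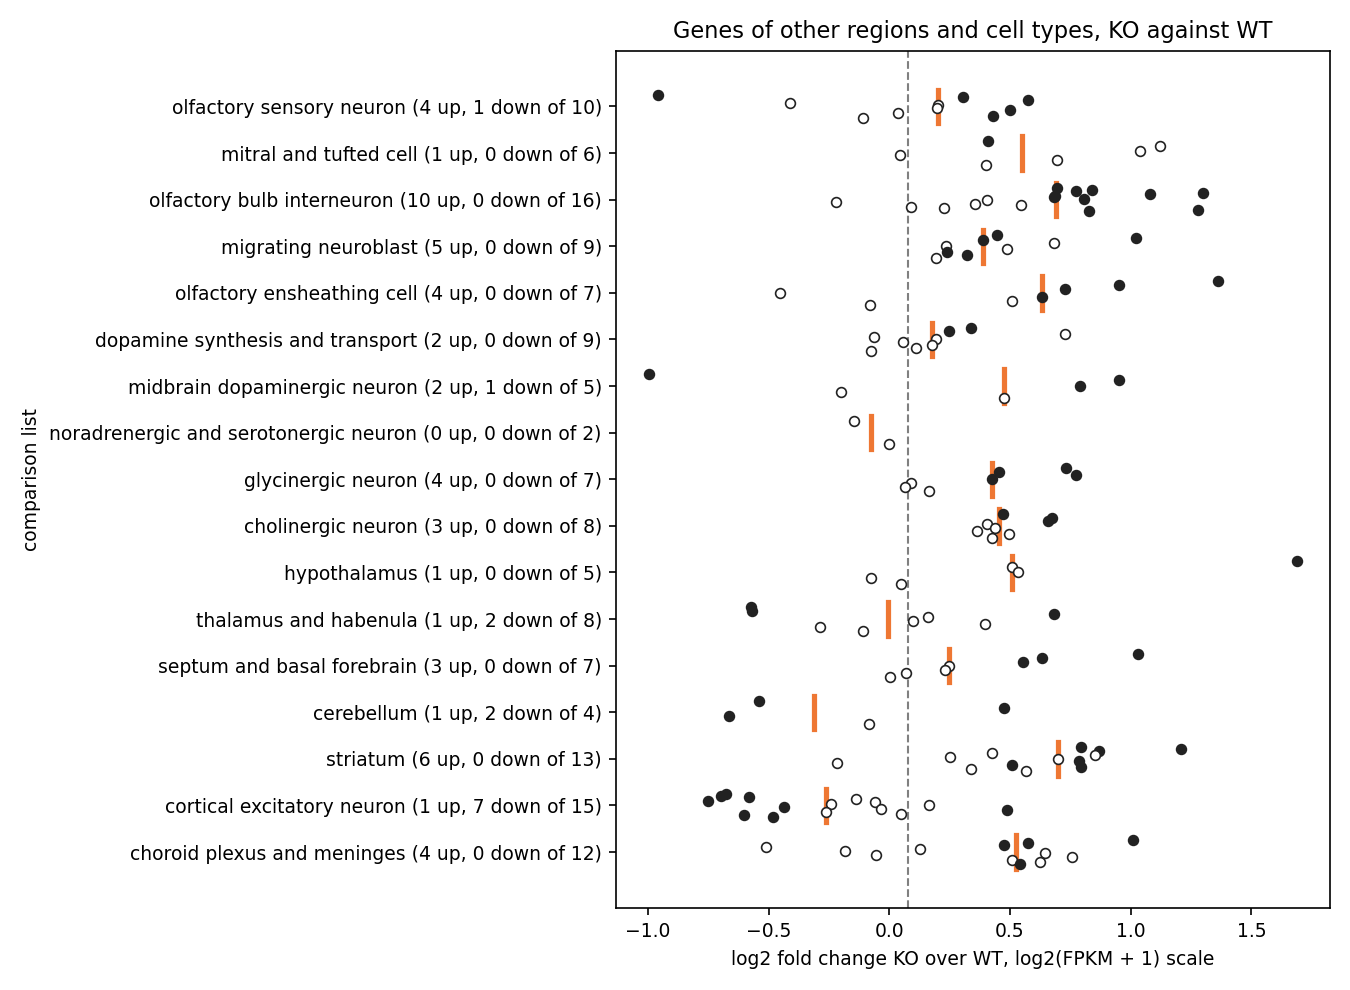
Log2 fold change, KO over WT on the log2(FPKM + 1) scale, of each tested gene of the comparison lists; filled points were called, open points were not, orange bars are list medians and the dashed line is the median of all 14497 genes. The bulb interneuron list has 10 of 16 genes called higher and the cortical excitatory list 7 of 15 called lower.

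Omp, Eomes, Slc6a5 and Ecel1 were also entered as covariates, to see how many genes were called once a marker's level was in the model. With log2(FPKM + 1) of Omp as a covariate, limma called 0 of 14497 genes, and 3495 had an unadjusted p under 0.05. The count was also 0 with Eomes, Slc6a5 or Ecel1, where 3183, 1816 and 841 genes had an unadjusted p under 0.05. Without any covariate 1926 genes were called and 4758 had an unadjusted p under 0.05. Without the library labelled KO3 the count was 3769 with no covariate (26% of those tested), 2092 with Omp (14.4%), 428 with Slc6a5 (2.95%) and 5 with Ecel1 (0.0344%). Of all genes tested, 9.9% were then called higher and 4.5% lower with Omp, 2.02% and 0.923% with Slc6a5, and 0.0275% and 0.00689% with Ecel1. A covariate that differs between genotypes takes up part of the genotype difference, so these counts cannot tell the marker and the genotype apart. Without the library labelled KO3, Slc6a5 was at least 0.366 FPKM in KO and at most 0.0491 FPKM in WT. Ecel1 was then at least 8.75 FPKM in KO and at most 6.37 FPKM in WT. Omp still overlapped, at 0.406 FPKM in KO5 and up to 3.26 FPKM in WT. The markers thus differ in how far they part the genotypes, and the counts do not rank them. The markers were chosen by their values per genotype, so part of the fall in the counts was set in advance. With no covariate, leaving out WT1, KO2 or KO4 also left only 2 genes called.

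**Figure D5:**
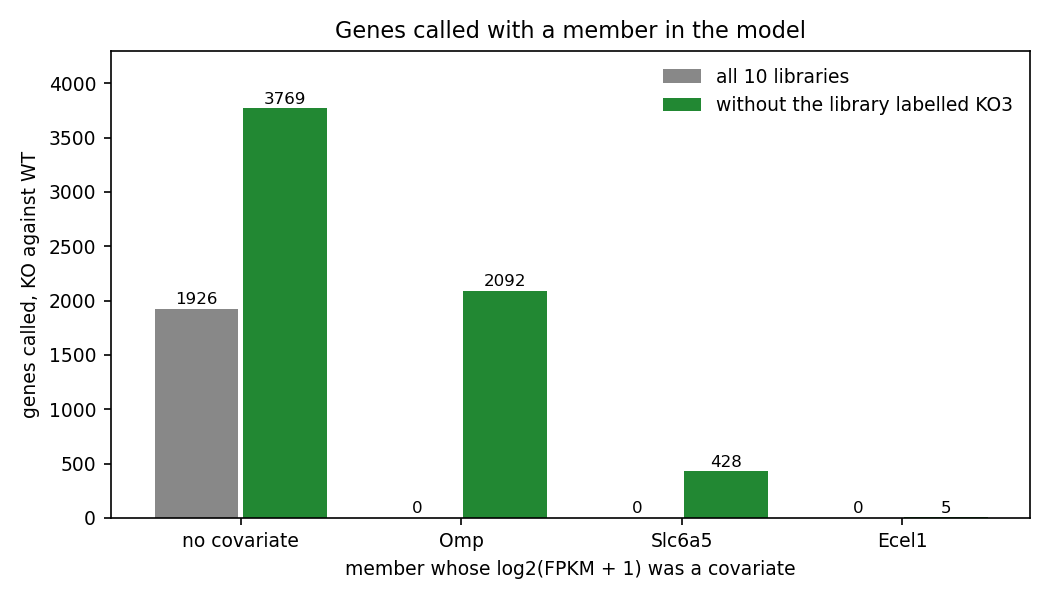
Number of genes called between KO and WT by limma (adjusted p under 0.05) with no covariate or with the level of Omp, Slc6a5 or Ecel1 as a covariate, over all 10 libraries (grey) and without the library labelled KO3 (green). No gene was called with a covariate over all libraries, and without that library the counts were 3769, 2092, 428 and 5. The markers were chosen by their values per genotype, so the counts cannot tell marker and genotype apart.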

How the data were processed

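Per the labels' protocols, motor cortex RNA came from a Kurabo tissue kit and libraries from a NEBNext Ultra kit, with no word on strand. The deposited values are FPKM per gene, with gene length and coordinates, per the file headers; mm10 and DESeq2 are named in the submitters' processing notes with no role, and for the aligner, counter and annotation nothing is given in the sources used here. FPKM times gene length was a whole multiple of 1 step per library (within 0.02 for at least 99.981% of values above 0), which gave fragments. No pair of libraries among 45 agreed within sampling noise. Libraries are called biological repeats in the series' design; the p-values measure the spread between them.

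Groups and numbers came from sample titles. The genotypes were compared in limma 3.58.1 (R 4.3.3; lmFit, eBayes with trend) on log2(FPKM + 1) over genes whose mean reached 0.5 FPKM. Fold changes on this scale understate low genes. Floors use 3 fragments per library and cover counting error only. The members and lists were chosen with earlier results of these data known. Named genes were the members, up to 3 genes per list with the lowest p, the 5 genes most like each member and 15 set genes; other names (Capn5, Gm33460, Cnga2, Cnga4, Pitx3, Lmx1a, Foxa1, Foxa2, En1, Pax2, Lbx1, Gabra6, Matn2, Slc6a13) were chosen after their values were seen. Alternatives covered pseudocount, filter, scaling, trend, a replicate block, voom, covariates and each library left out; 2 covariates together and covariates without the library labelled KO3 were added after seeing the data. The fit was first tested on simulated data with the same dispersion for every gene and with genes varying independently. That setting lacks the large differences shared by many genes between libraries of a genotype, so the test does not cover them. Annotated overlaps came from GENCODE M21 and promoters from RefSeq, GRCm38.p6. Some listed genes are not reported here.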

Additional observations from a re-analysis of the deposited data

Results flagged for a closer look

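In 166 groups of 5 libraries examined, 7 held a library apart from the other 4, where chance gives about 1 in 20. None of the 7 markers was among them. In KO5 Prss56 was 3.65 FPKM and Chat 2.18 FPKM, each the highest of the KO libraries. In the library labelled KO3 Camk2a was 708 FPKM, the highest of the KO libraries. Dbh was lowest among KO in KO2, at 0.0882 FPKM, and highest among WT in WT2, at 0.313 FPKM. Avp was highest among WT in WT2, at 0.601 FPKM, and Pvalb in WT5, at 52.5 FPKM.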

How the results depend on the processing

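Over all genes 1417 were called higher and 509 lower. With median-of-ratios scaling the counts were 608 and 945, without a filter on low values 347 and 118, and with the replicate block 884 and 387. With Omp, Eomes, Slc6a5 or Ecel1 as a covariate, or with Omp and Slc6a5 together, all were 0 (403 unadjusted p under 0.05 with the 2 together). Without the library labelled KO3 they were 294 and 134 with Slc6a5, and 4 and 1 with Ecel1, as a covariate. Among the genes of the lists, 52 higher and 13 lower, the counts were 26 higher with median-of-ratios scaling, 7 and 6 without a filter, 33 higher with the replicate block, 0 and 0 with each of those covariates over all libraries and with Ecel1 without the library labelled KO3, and 6 and 4 with Slc6a5 without it. Leaving out 1 library gave 1 to 2845 higher and 1 to 924 lower over all genes, and 0 to 62 higher and 0 to 16 lower in the lists; the lowest were without WT1, KO2 or KO4 and the highest without the library labelled KO3.

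The numbers of the titles did not pair the libraries: the same-numbered deviations correlated at 0.138, -0.0428, -0.0574, 0.139 and 0.114, and not every library correlated best with its own number. The log2 difference of the markers moved by more than the spread within groups with a pseudocount of 0.1, to 3.51 for S100a5, 2.03 for Eomes, 1.83 for Tbx21 and 3.45 for Slc6a5, as a smaller pseudocount widens differences of low values. Leaving out 1 library, the differences ranged from 1.43 to 2.19 for Omp, 1.66 to 2.64 for S100a5, 1.54 to 2.01 for Th, 0.906 to 1.32 for Eomes, 0.512 to 0.827 for Tbx21, 1.07 to 1.87 for Slc6a5 and 1.17 to 1.64 for Ecel1. Low fragment counts limit Tbx21, S100a5 and Slc6a5 in WT.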
